A study of Mus musculus with 9 samples.

Results

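Cadherins, catenins and epithelial adhesion genes were examined in the late embryonic mouse lens with and without the transcription factor ATF4. The group was taken by annotation symbol as *Cdh1*, *Cdh2*, *Cdh3*, *Epcam*, *Ctnna1*, *Ctnnb1*, *Ctnnd1*, *Jup* and *Pard3*, which are 9 of the 55416 genes counted. Whole lenses were dissected at E16.5, and total RNA of the pair of lenses of each embryo gave 1 library, with 4 *Atf4* null (labelled ATF4 knockout) and 5 wildtype (labelled WT) libraries. The null embryos were homozygous for the Atf4tm1Tow allele, in which a neomycin cassette stands in place of coding exons, and wildtype littermates came from the same heterozygous intercrosses. All were on a mixed C57Bl/6/129 background that was not typed for the *Bfsp2* deletion of 129 mice, both sexes were used, and *Atf4* was disrupted throughout the null embryo and not in the lens alone.

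Classical cadherins are transmembrane proteins that bind a cadherin of the neighbouring cell, and their cytoplasmic tails carry p120-catenin (*Ctnnd1*) and either β-catenin (*Ctnnb1*) or plakoglobin (*Jup*), which link through α-catenin (*Ctnna1*) to actin. In the lens, E-cadherin (*Cdh1*) is known as a protein of the anterior epithelial sheet, while N-cadherin (*Cdh2*) is made by both epithelial and fiber cells. EpCAM is an adhesion protein of many epithelia, and PAR3 (*Pard3*) is a scaffold that places junctions along the apical-basal axis.

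Of these genes, *Cdh1* differed most between the genotypes, with a mean in null lenses of 7.84% of that in wildtype lenses, a 12.8-fold difference. *Cdh2* also fell, by 0.72 on the log2 scale. The catenins, *Epcam*, *Cdh3* and *Pard3* did not pass the test. Thus 2 of the 9 genes were lower and 0 higher under a false discovery threshold of 0.05 (quasi-likelihood test of edgeR, p adjusted after Benjamini and Hochberg over 14903 genes), while 5.9% of all genes tested passed, 3.67% lower and 2.23% higher. The median log2 fold change was -0.02 over the 9 genes and 0.00 over all genes tested. The levels of 1 of the 9 genes, *Cdh1*, did not overlap between genotypes, as was the case for 10.2% of all genes tested.

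The 9 libraries held between 7440807 and 8906996 counts assigned to genes, and levels are given as CPM, the count scaled to a library total of 1000000 with TMM factors. *Atf4* itself was at 119 to 155 CPM in the wildtype and at 0.580 to 10.6 CPM in the null libraries, so each library matched its label. Wildtype replicate 5 stood apart, with 4555 CPM summed over 12 skeletal muscle markers and 14331 CPM over 10 mesenchyme markers, against 9.08 to 21.6 CPM and 90.7 to 175 CPM in the other wildtype libraries, and 19.4 to 46.8 CPM and 256 to 607 CPM in the null libraries. The tested differences of the 9 genes, their ratios and the other called junction genes are therefore given with and without that library. Retina markers summed to 515 to 1112 CPM in null and 385 to 489 CPM in wildtype libraries, and 4 of the 11 were higher in null lenses. The lens epithelium list held 13 markers, all of them tested, of which 8 were lower in null lenses. Of 11 tested lens fiber markers, 5 were lower, with a median log2 fold change of -0.57. Fiber markers summed to 23366 to 55851 CPM in null libraries, to 31009 CPM in wildtype replicate 5 and to 53152 to 58601 CPM in the other wildtype libraries. In RNA from whole lenses, fewer cells of a type and less RNA per cell cannot be told apart.

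*Cdh1* (ENSMUSG00000000303, chr8:107329941-107396880, plus strand, GRCm39) encodes E-cadherin, and *Cdh3* (ENSMUSG00000061048, chr8:107237456-107283929, plus strand), encoding P-cadherin, lies directly before it, with 46011 bases between them. The 250 bases before the start site of each gene are shown, because these neighbours in the same orientation differed in their response. They were read on the plus strand of GRCm39, at chr8:107329733-107329982 for *Cdh1* and chr8:107237206-107237455 for *Cdh3*, before the first base of the GENCODE vM39 canonical transcript. Capitals mark E-boxes (CAGGTG, or CACCTG on the other strand), CCAAT boxes (CCAAT, or ATTGG) and AP-2 sites (GCCNNNGGC).
Cdh1: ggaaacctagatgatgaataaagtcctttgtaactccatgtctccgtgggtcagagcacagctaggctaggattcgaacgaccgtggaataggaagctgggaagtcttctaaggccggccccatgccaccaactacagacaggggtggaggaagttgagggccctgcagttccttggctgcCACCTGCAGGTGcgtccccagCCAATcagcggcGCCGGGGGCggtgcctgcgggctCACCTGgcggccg
Cdh3: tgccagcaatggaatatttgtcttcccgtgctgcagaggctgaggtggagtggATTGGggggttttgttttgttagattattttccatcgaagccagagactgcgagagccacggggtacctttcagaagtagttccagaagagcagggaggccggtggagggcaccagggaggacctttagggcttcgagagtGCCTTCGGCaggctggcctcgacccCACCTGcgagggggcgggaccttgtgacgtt
The *Cdh1* window held 3 E-boxes, the motif to which the SNAIL and ZEB repressors are known to bind, beginning at -69, -63 and -13 from the start site. The first 2 of these abut and form a palindrome. The *Cdh3* window held 1 E-box, at -31. A CCAAT box began at -48 in *Cdh1* and at -197 in *Cdh3*, and an AP-2 site at -36 in *Cdh1* and at -56 in *Cdh3*. A GC box (GGGCGG on either strand) began at -31 in *Cdh1*, overlapping its AP-2 site, and at -20 in *Cdh3*. The annotated span of *Cdh1* begins at 107329941, inside its window and before the canonical start site. The AP-2 site, the GC box and the E-box at -13 of *Cdh1* lie within that span. The *Cdh3* window ends just before the annotated span of its gene. The ATF4 element TGATGNAA was in neither window on either strand. Among 21770 windows of the same length, 17.7% held an E-box, 36.5% a CCAAT box, 13.2% an AP-2 site, 36.3% a GC box and 3.39% the ATF4 element. These matches describe the letters of the window and are not evidence of binding.

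*Cdh1* was at 197, 171, 203, 184 and 130 CPM in wildtype replicates 1 to 5. In *Atf4* null replicates 1 to 4 it was at 5.56, 20.7, 16.4 and 12.9 CPM. Every null library was below every wildtype library, and null replicate 1 was the lowest. Wildtype lenses averaged 177 ± 29.1 CPM (SD, n = 5) and null lenses 13.9 ± 6.40 CPM (SD, n = 4), with a log2 fold change of -3.68 (SE 0.30, 95% interval -4.32 to -3.03, edgeR adjusted p = 2.2e-05). The difference passed the test in 18 of 18 alternative analyses, with log2 fold changes from -3.93 to -3.40. Without wildtype replicate 5 it was -3.77 (SE 0.27).

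**Figure D1:**
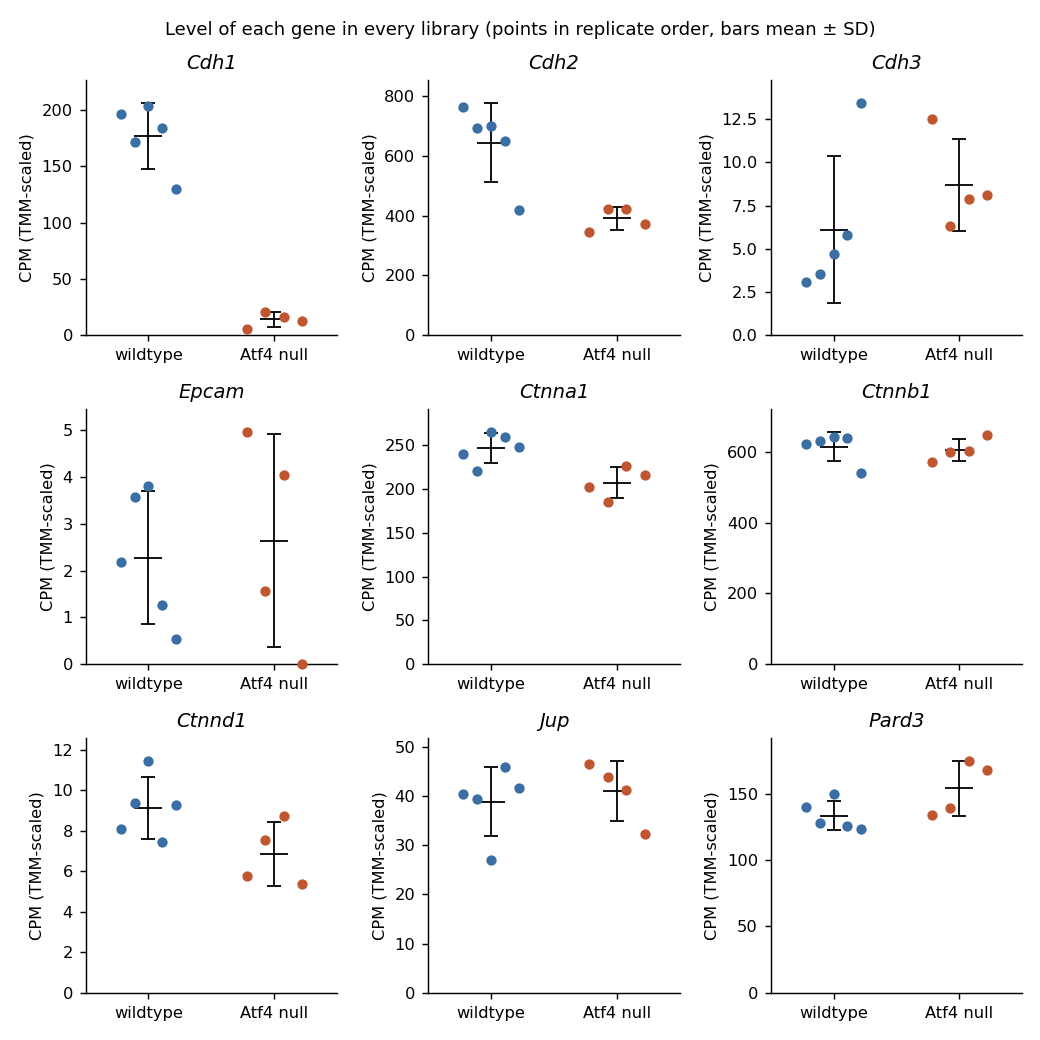
CPM (TMM-scaled, vertical axes from 0) of the 9 adhesion genes in each library, with wildtype points in blue, *Atf4* null points in orange, and black bars for the mean ± SD (n = 5 and n = 4). *Cdh1* separated the genotypes completely, *Cdh2* overlapped through wildtype replicate 5, at 419 CPM, and *Ctnnb1* lay between 541 and 648 CPM in all libraries.

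*Cdh2* (ENSMUSG00000024304, chr18:16700793-16942381, minus strand), which encodes N-cadherin, had the most reads of the 3 cadherins in either genotype. It was at 764, 694, 699, 651 and 419 CPM in wildtype replicates 1 to 5. In null replicates 1 to 4 it was at 347, 423, 424 and 373 CPM. Wildtype replicates 1 to 4 all lay above the null libraries, and wildtype replicate 5 lay within them. The means were 645 ± 133 CPM (SD, n = 5) and 392 ± 38.3 CPM (SD, n = 4), a log2 fold change of -0.72 (SE 0.16, 95% interval -1.07 to -0.37, edgeR adjusted p = 0.0179). Without wildtype replicate 5 the log2 fold change was -0.84 (SE 0.11, edgeR adjusted p = 0.000147). Wildtype replicate 5 and the null libraries other than null replicate 4 also had low fiber marker sums, whose part in the *Cdh2* difference was not tested. The call held in 17 of 18 alternatives and was lost without wildtype replicate 3 (-0.69, edgeR adjusted p = 0.0515).

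*Cdh3* is known in the eye from pigment epithelium. It was at 3.07, 3.57, 4.68, 5.80 and 13.4 CPM in wildtype replicates and at 12.5, 6.34, 7.87 and 8.12 CPM in null replicates. Wildtype replicate 5 was the highest of all 9 libraries, and wildtype replicates 1 to 4 were all below the null libraries. The log2 fold change was 0.51 (SE 0.44, 95% interval -0.45 to 1.46, edgeR adjusted p = 0.604) and, without wildtype replicate 5, 1.03 (SE 0.39, edgeR adjusted p = 0.13), so it did not pass either way. With 570 counts in all 9 libraries together, the precision was low. Pigment cell markers summed to 186 CPM in wildtype replicate 5, against 74.5 to 120 CPM in the other wildtype and 111 to 154 CPM in the null libraries, and their part in the *Cdh3* values was not tested.

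**Figure D2:**
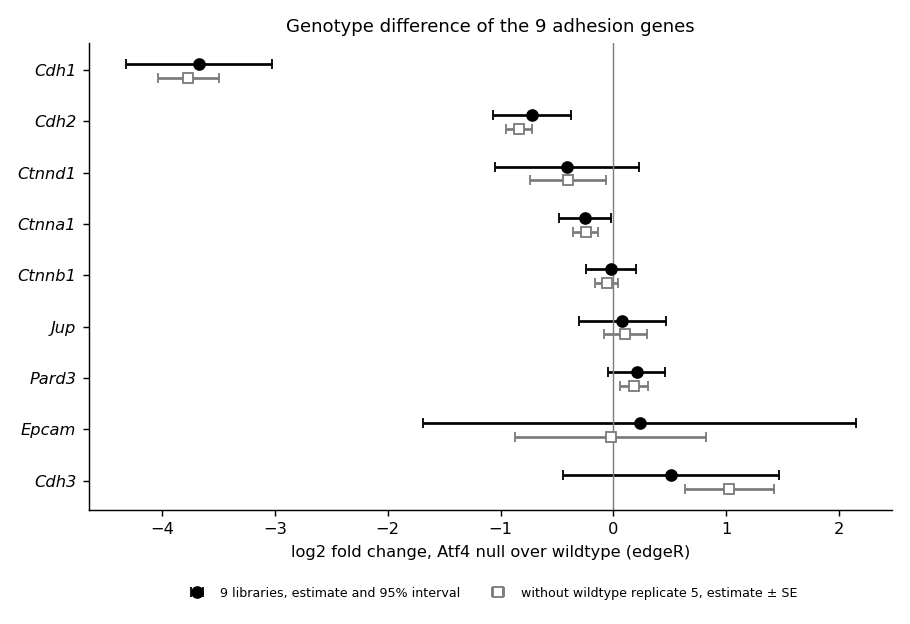
Log2 fold change of each adhesion gene, *Atf4* null over wildtype, from edgeR (horizontal axis), with filled circles and 95% intervals for all 9 libraries and open squares ± SE without wildtype replicate 5. *Cdh1* at -3.68 stood far to the left, *Cdh2* at -0.72 was the only other gene whose call passed, and the intervals of *Epcam* and *Cdh3* were wide.

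Relations between cadherins were next compared within each library, where the scaling of libraries does not enter. The log2 ratio of *Cdh1* to *Cdh2* counts ran from -2.02 to -1.69 in the wildtype and from -5.95 to -4.35 in the null libraries. Its mean was lower by 3.10 in null lenses, in 4 of 4 libraries (difference -3.10, two-sided exact permutation p = 0.00794, which is the smallest that 4 against 5 libraries can give, and 0.0132 after adjustment over 5 ratios). The difference was -3.06 without wildtype replicate 5 (exact permutation p = 0.0286, the smallest that 4 against 4 can give). The fall of *Cdh1* was therefore larger than that of *Cdh2* beyond the spread between libraries. Wildtype replicate 5, at -1.69, lay with the other wildtype libraries in this ratio, although both genes had their lowest wildtype level there. The log2 ratio of *Cdh1* to *Cdh3* counts ran from 3.27 to 5.97 in wildtype and from -1.16 to 1.70 in null libraries (difference -4.48, exact permutation p = 0.00794, adjusted 0.0132), and without wildtype replicate 5 the difference was -4.92 (exact permutation p = 0.0286).

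Dividing by exon length (FPKM) set the cadherins beside each other, within a limit. The length joins the exons of all annotated transcripts of a gene, so comparisons between genes also depend on which transcripts are annotated. *Cdh1* was at 38.2 ± 6.28 FPKM in wildtype lenses (SD, n = 5) and 2.99 ± 1.38 FPKM in null lenses (SD, n = 4). *Cdh2* was at 74.5 ± 15.3 FPKM in wildtype lenses and 45.2 ± 4.42 FPKM in null lenses. Of the FPKM of *Cdh1*, *Cdh2* and *Cdh3* together, *Cdh1* made up 31.4 to 35.7% in the wildtype libraries and 2.78 to 8.22% in the null libraries, and *Cdh2* made up 61.7 to 68.1% and 90.0 to 92.8%. These shares were described without a test. The summed FPKM of the 3 cadherins was 78.4 to 131 in wildtype and 43.1 to 54.2 in null libraries, whereas that of their β-catenin family partners, *Ctnnb1* and *Jup*, was 71.0 to 83.3 and 75.3 to 83.0. The cadherin sum per unit of *Ctnnb1* and *Jup* was thus 1.11 to 1.62 in wildtype and 0.567 to 0.690 in null libraries, a measure chosen after the values were seen and given without a test.

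**Figure D3:**
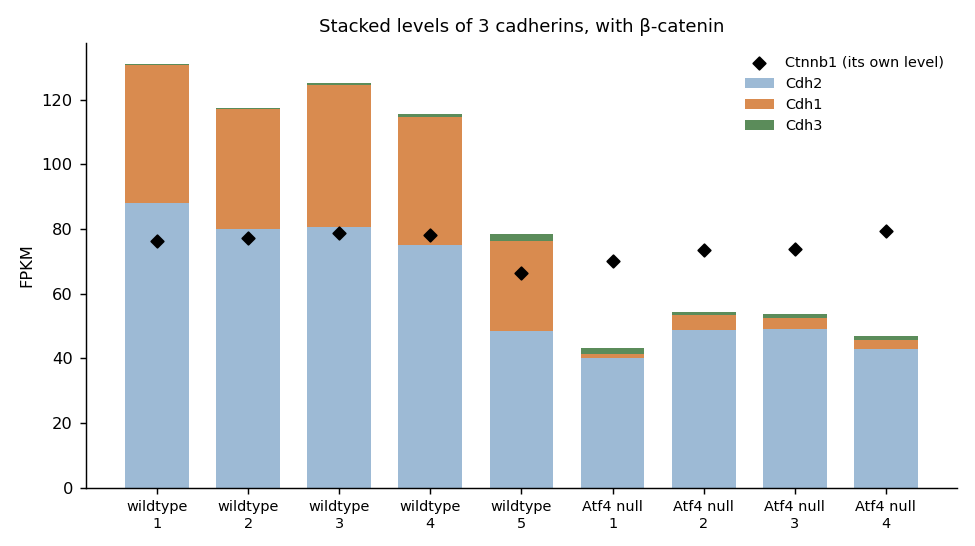
FPKM (vertical axis, from 0) of *Cdh2*, *Cdh1* and *Cdh3* stacked for each library, with black diamonds for the FPKM of *Ctnnb1* in the same library. The *Cdh1* segment was 31.4 to 35.7% of each wildtype bar and 2.78 to 8.22% of each null bar, while *Ctnnb1* stayed between 66.3 and 79.3 FPKM.

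*Cdh1* was also set beside other transcripts of the lens epithelium, since 8 of the 13 markers of that layer were lower as well. *Foxe3*, a transcription factor of lens epithelial cells, had a log2 fold change of -2.23 (SE 0.38, edgeR adjusted p = 0.00347). *Pdgfra*, the receptor for platelet-derived growth factor, had the lowest value of the 13 markers at -3.36 (SE 0.31), while *Pax6* stood at -0.06 and the proliferation marker *Mki67* at 0.02. The highest of the 13 values was 0.88, all 13 were above that of *Cdh1*, and their median was -0.76. Without wildtype replicate 5, 8 markers passed the test as lower and 1 as higher. Log2 CPM of *Cdh1* minus the median of the 13 markers was 0.50 to 1.01 in wildtype and -2.21 to -0.90 in null libraries. The difference was -2.09, in 4 of 4 null libraries (exact permutation test, two-sided, p = 0.00794, adjusted 0.0132), and it lay between -2.22 and -1.78 when each library was left out in turn, with -2.18 (exact permutation p = 0.0286) for wildtype replicate 5. The fall of *Cdh1* thus exceeded that of the median epithelial marker, while a comparison with each marker alone was not tested. Retina markers summed to 515 to 1112 CPM in null and 385 to 489 CPM in wildtype libraries. The part of retinal RNA in the values of the epithelial markers was not tested.

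**Figure D4:**
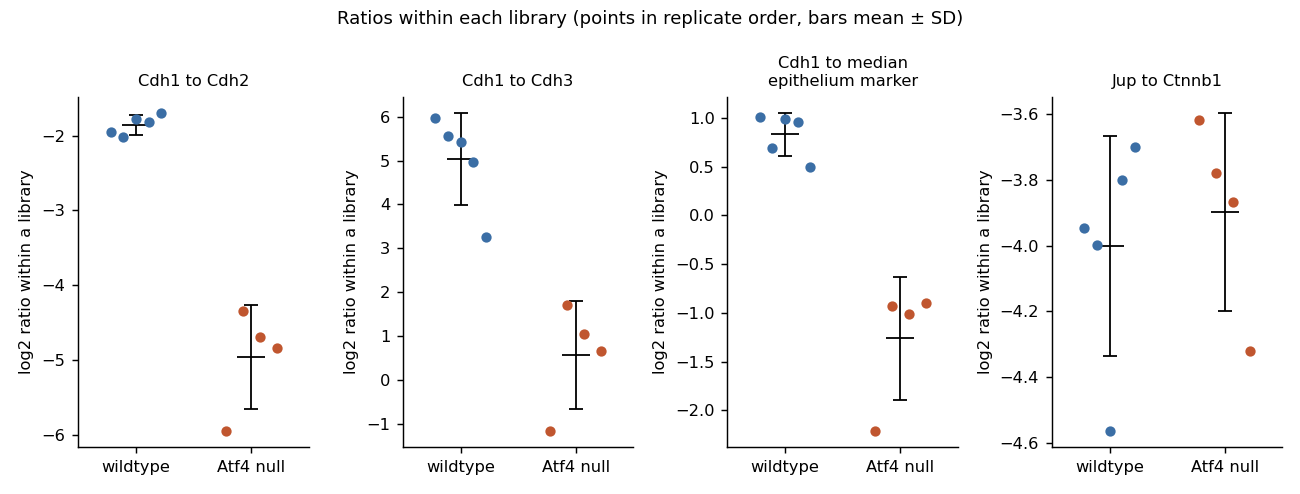
Log2 ratios within each library (vertical axes, no unit), with wildtype points in blue, *Atf4* null points in orange and bars for the mean ± SD (n = 5 and n = 4). The ratios of *Cdh1* to *Cdh2*, to *Cdh3* and to the median epithelium marker did not overlap between genotypes, and null replicate 1 was the lowest in each, while *Jup* to *Ctnnb1* overlapped.

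*Epcam* (ENSMUSG00000045394, chr17:87943407-87958557, plus strand) was near the limit of detection, with 192 counts over the 9 libraries. It was at 2.17, 3.57, 3.82, 1.26 and 0.534 CPM in wildtype and at 4.97, 1.55, 4.04 and 0 CPM in null replicates. The 0 in null replicate 4 allows up to 3 counts, or 0.435 CPM. The genotypes overlapped across their whole range, with a log2 fold change of 0.23 (SE 0.89, 95% interval -1.69 to 2.15, edgeR adjusted p = 0.93) whose sign turned in 4 of 17 alternatives, so no difference was detectable at this depth. Markers of surface ectoderm and cornea, epithelia that make EpCAM, summed to 8.70 to 30.8 CPM in wildtype and 11.7 to 29.7 CPM in null libraries. The log2 ratio of *Cdh1* to *Epcam* counts averaged 6.53 in wildtype and 3.33 in null libraries (difference -3.20, exact permutation p = 0.0635, adjusted 0.0794), with overlap through null replicate 4, and without that library it was -4.58 (exact permutation p = 0.0179). Leaving out wildtype replicate 5 gave -2.88 (exact permutation p = 0.143) and a log2 fold change of *Epcam* of -0.03.

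Among the catenins, *Ctnnb1* (ENSMUSG00000006932, chr9:120757422-120789579, plus strand) encodes β-catenin, which serves both at the cadherin tail and as the coactivator of Wnt signaling. It was at 624, 631, 642, 638 and 541 CPM in wildtype and at 572, 601, 603 and 648 CPM in null replicates. The means were 615 ± 41.9 CPM (SD, n = 5) and 606 ± 31.3 CPM (SD, n = 4), a log2 fold change of -0.02 (SE 0.10, 95% interval -0.25 to 0.20, edgeR adjusted p = 0.944). Its direction was not set, as it was 0.10 with library sizes in place of TMM factors, 0.01 without null replicate 1 and -0.06 without wildtype replicate 5. Exons of other genes share 11.7% of its exon bases.

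*Ctnna1* (ENSMUSG00000037815, chr18:35226033-35387833, plus strand), α-catenin, was at 241, 221, 265, 260 and 249 CPM in wildtype replicates and at 202, 185, 226 and 216 CPM in null replicates. The groups met only where null replicate 3, at 226 CPM, exceeded wildtype replicate 2. The log2 fold change was -0.25 (SE 0.11, 95% interval -0.48 to -0.02), with an unadjusted p of 0.0333 and an edgeR adjusted p of 0.204, and it passed in 0 of 18 alternatives (-0.25 without wildtype replicate 5).

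*Jup* (ENSMUSG00000001552, chr11:100259784-100291103, minus strand) encodes plakoglobin, a β-catenin relative found in adherens junctions and desmosomes. It was at 40.4, 39.5, 27.1, 45.8 and 41.6 CPM in wildtype and at 46.6, 43.8, 41.3 and 32.4 CPM in null replicates, with a log2 fold change of 0.08 (SE 0.18, 95% interval -0.31 to 0.46, edgeR adjusted p = 0.876). The value was -0.03 without wildtype replicate 3, the lowest library, and 0.11 without wildtype replicate 5. The log2 ratio of *Jup* to *Ctnnb1* counts ran from -4.56 to -3.70 in wildtype and from -4.32 to -3.62 in null libraries (difference 0.11, exact permutation p = 0.603, and 0.18 without wildtype replicate 5, exact permutation p = 0.429).

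*Ctnnd1* (ENSMUSG00000034101, chr2:84425959-84489326, minus strand) encodes p120-catenin, which holds cadherins at the surface. Its level could not be read with confidence, since 4482 of its 11919 exon bases (37.6%) are shared with the read-through gene *Gm28635* on the same strand, which had 0 counts in all 9 libraries. It was at 8.06, 9.35, 11.4, 7.44 and 9.28 CPM in wildtype and at 5.76, 7.53, 8.74 and 5.37 CPM in null replicates, from 616 counts in all. The groups overlapped and the log2 fold change was -0.41 (SE 0.30, 95% interval -1.05 to 0.23, edgeR adjusted p = 0.508), and -0.40 without wildtype replicate 5.

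*Pard3* (ENSMUSG00000025812, chr8:127790392-128338767, plus strand), the polarity scaffold, was at 124 to 150 CPM in the 5 wildtype libraries and at 134, 139, 175 and 168 CPM in null replicates 1 to 4. Null replicates 3 and 4 were above all wildtype libraries and null replicates 1 and 2 within them. The log2 fold change was 0.21 (SE 0.12, 95% interval -0.05 to 0.46, edgeR adjusted p = 0.373), and 0.18 without wildtype replicate 5.

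Per length, the order of the group in wildtype lenses was *Ctnnb1* (75.3 FPKM), *Cdh2* (74.5 FPKM), *Cdh1* (38.2 FPKM), *Ctnna1* (27.1 FPKM), *Pard3* (8.83 FPKM), *Jup* (4.38 FPKM), *Cdh3* (0.929 FPKM), *Epcam* (0.878 FPKM) and *Ctnnd1* (0.765 FPKM). The ranges over libraries overlapped between *Ctnnb1* and *Cdh2*, between *Cdh1* and *Ctnna1*, and among the last 3 genes, so that these neighbours were not ordered beyond their spread. The place of *Ctnnd1* cannot be taken from these values, since its FPKM divides by all of its exon bases, the shared ones included. In null lenses *Cdh1* stood below *Jup* (2.99 against 4.61 FPKM), and its range overlapped with those of both *Jup* and *Cdh3* (1.32 FPKM). *Ctnnb1* and *Cdh2*, which overlapped in wildtype, were separate in null lenses at 74.2 and 45.2 FPKM. The order of *Ctnna1* (22.8 FPKM) and *Pard3* (10.2 FPKM) after *Cdh2* was the same.

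The genes whose profile over the 9 libraries was nearest to that of *Cdh1* were found by the root mean square difference of centred log2 CPM. These were *Grm8*, a metabotropic glutamate receptor gene (0.264), *Rnf113a1*, which encodes a RING finger protein (0.490), the gene model *Gm42676* (0.560), the ABC transporter gene *Abca13* (0.568) and the solute carrier gene *Slc45a4* (0.600). *Slc45a4* went from a mean of 327 to 32.9 CPM and *Rnf113a1* from 254 to 23.7 CPM, while *Grm8* went from 20.9 to 2.00 CPM. Since *Cdh1* itself differed between genotypes, any such gene had to differ too, and these values are a description. No cadherin or catenin was among these 5 genes.

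Other genes of cell junctions and of their control were taken from 11 lists, which held 154 genes, of which 117 passed the filter on low counts. Of these 117, 7 (5.98%) were lower and 3 (2.56%) higher in null lenses, beside 3.67% and 2.23% of the 14903 genes tested as a whole. Their median log2 fold change was 0.02. The calls depended on single libraries, since 18 passed without wildtype replicate 5 and 3 without wildtype replicate 1, 2 or 3 or without null replicate 2.

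Among 20 other cadherins, 12 were tested and 1, *Cdh17*, known from intestinal epithelium, was lower. It had 3 counts over the null and 79 over the wildtype libraries, a ratio of 21.9 after correction for library size (95% counting interval 7.24 to 109). *Cdh17* passed the filter on low counts only through wildtype replicates 1 to 4, at 1.48 to 3.53 CPM. Wildtype replicate 5 was at 0.427 CPM and the null libraries at most at 0.239 CPM. The gene could thus be called only as lower, and it was not tested without any 1 of wildtype replicates 1 to 4. Its call was lost when any null library was left out but held without wildtype replicate 5 (edgeR adjusted p = 0.0101). Of the mesenchymal *Cdh11* and the endothelial *Cdh5*, log2 fold changes were 0.30 and -0.68 (edgeR adjusted p = 0.70 and 0.161). When wildtype replicate 5 was left out, *Cdh11* passed at 0.76 (edgeR adjusted p = 0.025) and *Cdh5* was at -0.50 (edgeR adjusted p = 0.209). The plaque and actin linkers gave 0 calls of 17, with *Afdn*, encoding the nectin anchor afadin, at 0.42 (edgeR adjusted p = 0.0566) and vinculin (*Vcl*) at 0.52 (edgeR adjusted p = 0.0831). With wildtype replicate 5 left out, 3 plaque genes passed, *Vcl* higher at 0.68 (edgeR adjusted p = 0.0028, with 24.6% of its exon bases shared with *Ap3m1*) and *Ctnnd2* and *Arvcf* lower. Desmosomal genes gave 0 calls of 7 and EpCAM partners 0 of 2, with or without that library, and polarity genes 0 of 17, or 1, *Crb2*, without it. The EpCAM-binding claudin gene *Cldn7* had 0 counts in each library, which allows up to 3 counts per library.

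Among the 7 nectin and nectin-like genes, *Cadm1*, which encodes an immunoglobulin-type adhesion molecule, was lower. It was at 459, 496, 497, 441 and 312 CPM in wildtype and at 200, 245, 242 and 289 CPM in null replicates, without overlap (log2 fold change -0.85, SE 0.15, edgeR adjusted p = 0.0052). Of 13 tested tight junction genes, *Cgnl1*, encoding the junctional linker paracingulin, fell by 0.83 on the log2 scale, with 321 to 452 CPM in wildtype and 162 to 253 CPM in null libraries (edgeR adjusted p = 0.00478). Both *Cadm1* and *Cgnl1* passed in 18 of 18 alternatives, with -0.95 and -0.89 without wildtype replicate 5. *Tjp1*, encoding the scaffold ZO-1, was higher at 0.75 (SE 0.21, edgeR adjusted p = 0.0499), with 1041, 1520, 1428 and 2315 CPM in null replicates against 635 to 1063 CPM in wildtype. Its genotypes overlapped through null replicate 1, and it passed in 9 of 18 alternatives, failing when any library but null replicate 1 or wildtype replicate 5 was left out (0.65 without the latter). A further tight junction gene, *Jam3*, was lower when that library was left out (-0.45, edgeR adjusted p = 0.0372, and 0.126 with all libraries). Exons of other genes share 31.5% of the exon bases of *Jam3*.

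Known regulators of *Cdh1* transcription gave 2 calls among the 12 tested, both AP-2 factor genes and in opposite directions. *Tfap2a*, encoding AP-2α of the surface ectoderm and lens epithelium, was at 48.1, 43.8, 24.1, 36.3 and 22.9 CPM in wildtype and at 12.3, 19.5, 16.1 and 14.2 CPM in null replicates (log2 fold change -1.17, SE 0.26, edgeR adjusted p = 0.0162, 18 of 18 alternatives, and -1.29 without wildtype replicate 5). All null libraries were below all wildtype libraries, although 14.6% of its exon bases are shared with noncoding genes. *Tfap2b* was at 35.1, 25.5, 20.1 and 6.67 CPM in null and at 2.81, 2.71, 6.65, 2.02 and 12.3 CPM in wildtype replicates (log2 fold change 2.04, SE 0.54, edgeR adjusted p = 0.0416, 10 of 18 alternatives, and 2.62 without wildtype replicate 5), its call being lost without any 1 of null replicates 1 to 3 or wildtype replicates 1 to 4. AP-2β is also made in retinal amacrine cells, and null replicates 1 and 4 were the highest and the lowest null libraries both for *Tfap2b* and for the retina marker sum (1112 and 515 CPM). The part of retinal RNA in the *Tfap2b* difference was not tested.

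The repressors that act on E-boxes such as those printed above did not pass the test with all libraries, and *Zeb1* passed without wildtype replicate 5. *Zeb1* was at 156 to 183 CPM in null and 119 to 167 CPM in wildtype libraries (log2 fold change 0.29, SE 0.12, edgeR adjusted p = 0.189). Without wildtype replicate 5, which held 167 CPM, it was higher at 0.39 (SE 0.11, edgeR adjusted p = 0.0406). *Zeb2* was at 186 to 240 CPM in null and 226 to 303 CPM in wildtype libraries (-0.31, SE 0.12, edgeR adjusted p = 0.167). *Snai1*, *Snai2* and *Twist1* were scarce, with at most 9.92 CPM in any library. *Grhl2*, which encodes an activator of *Cdh1*, did not pass the filter on low counts, nor did *Ovol1*, encoding a repressor, and *Esrp1*, encoding an epithelial splicing factor.

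**Figure D5:**
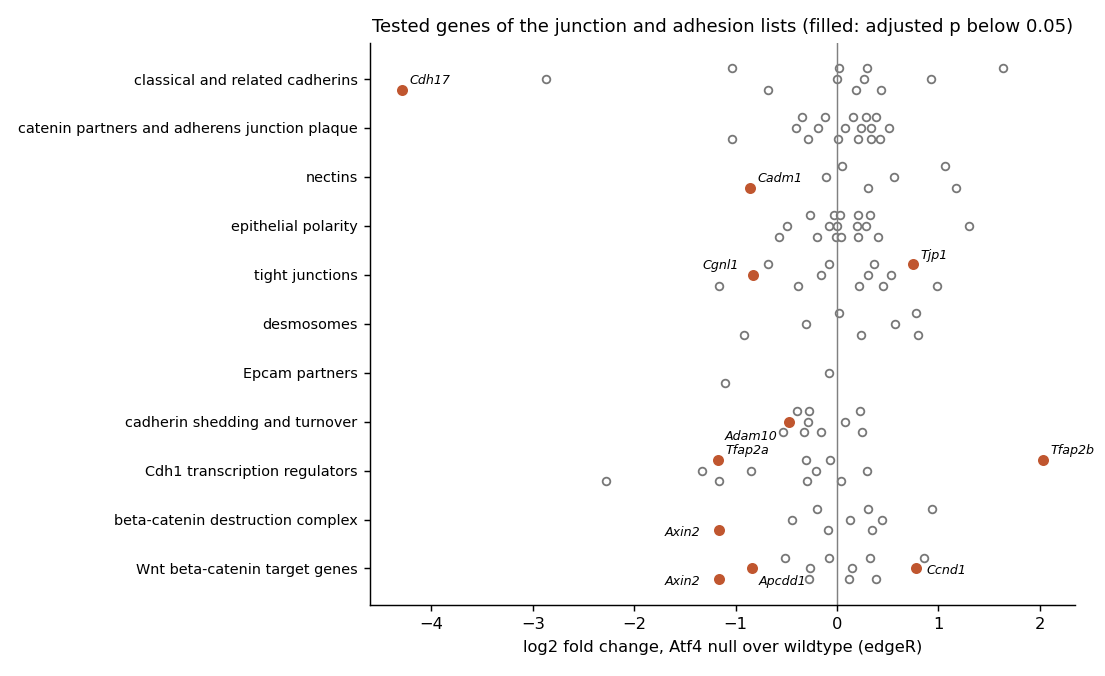
Log2 fold change, *Atf4* null over wildtype (edgeR, horizontal axis), of each tested gene in 11 junction and adhesion lists (vertical axis), with filled points for genes at an adjusted p below 0.05. Of 117 genes, 10 were filled, 7 to the left and 3 to the right, and *Axin2* stood in 2 lists.

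Proteases and sorting factors that act on cadherins gave 1 call of 10. *Adam10*, the protease known to shed E- and N-cadherin, fell by 0.47 on the log2 scale, from 302 ± 38.5 CPM (SD, n = 5) to 219 ± 25.4 CPM (SD, n = 4; edgeR adjusted p = 0.0459), with overlap through wildtype replicate 5 and a call in 10 of 18 alternatives, being lost without any 1 of null replicates 1 to 3 or wildtype replicates 1 to 4. Without wildtype replicate 5 it was -0.53 (edgeR adjusted p = 0.00864).

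Because β-catenin also carries the Wnt signal, its destruction complex and known Wnt targets were read as well. In the complex, 1 of 9 genes passed. This was *Axin2*, both a scaffold of the complex and a Wnt target, at 50.4, 57.7, 51.2, 62.7 and 49.1 CPM in wildtype and 36.1, 26.9, 24.9 and 8.56 CPM in null replicates (log2 fold change -1.16, SE 0.30, edgeR adjusted p = 0.0347). Of 12 tested Wnt targets, *Axin2* and *Apcdd1* (-0.84, SE 0.23, edgeR adjusted p = 0.0481), which encodes a Wnt inhibitor, were lower. *Ccnd1*, encoding cyclin D1, was higher at 406 to 672 CPM in null replicates 1 to 3 and 305 CPM in null replicate 4, against 236 to 295 CPM in wildtype (log2 fold change 0.78, SE 0.18, edgeR adjusted p = 0.0237), and 48.4% of its exon bases are shared with *LTO1*. Null replicates 1 and 4 were the highest and the lowest null libraries for *Ccnd1*, as they were for the retina marker sum (1112 and 515 CPM). The part of retinal RNA in the *Ccnd1* difference was not tested. The 12 targets had a median of 0.02. *Axin2*, *Apcdd1* and *Ccnd1* passed in 11, 9 and 14 of 18 alternatives, and all 3 calls were lost without wildtype replicate 1, 2 or 3 or null replicate 2. Their values were -1.19, -0.85 and 0.77 without wildtype replicate 5, and *Apc2* of the complex also passed (1.09, edgeR adjusted p = 0.013).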

How the data were processed

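Per the submitters' processing notes and the study's methods, the authors trimmed reads with Trim Galore, removed ribosomal reads, aligned the rest to GRCm39 with HISAT2 and counted them over Ensembl genes by HTSeq. What they deposited are raw counts per gene and library, without normalization. The strand setting of the counting was not given in the sources used here, and the labels and the methods name different RNA kits. HTSeq's 5 summary entries, 44.6 to 47.7% of each file, were left out. Identifiers were joined to GENCODE vM39 for symbols (54749 of 55416), positions and exon lengths.

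Genotypes were compared with edgeR 4.0.16 in R 4.3.3 (filterByExpr, TMM, glmQLFit, glmQLFTest, no covariate), with Benjamini-Hochberg adjustment over 14903 genes and a threshold of 0.05. The procedure was tested on simulated data with known changes, of which 188 were in genes that passed the filter. The procedure recovered 64 of 93 4-fold changes and 38 of 95 2-fold changes, and called 4 unchanged genes. A 2-fold difference could therefore go uncalled. The rates themselves need not hold for the data, where 880 genes were called, more than were changed in the simulation. Log2 ratios within libraries used a pseudocount of 0.5 count (for epithelium markers, log2 CPM with a prior count of 2) and an exact permutation test (scipy 1.17.1, Python 3.11.15). Intervals on counts cover counting error only. For FPKM, CPM were divided by the summed length of the exons of all annotated transcripts, with overlapping bases counted once.

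The members and lists were chosen with earlier results of these data known. Named are the 9 members, *Atf4*, *Foxe3*, up to 4 genes of each junction list with the smallest p below the threshold, and the 5 genes nearest to *Cdh1* in profile. The others were named after their values had been seen. Alternatives were DESeq2 1.42.0, edgeR's exactTest, library size or DESeq2 size factors for scaling, TMM without crystallin genes, no filter, a minimum of 10 counts per library, a robust fit, a block for the replicate number, and leaving out single libraries. For wildtype samples the title names another library than the count file does, so wildtype replicate numbers are uncertain and the genotype is not. Over 36 pairs of libraries, chi-square divided by its degrees of freedom was at least 7.93, so no library repeated another.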

Additional observations from a re-analysis of the deposited data

Results flagged for a closer look

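The following 3 values of the 9 genes and their ratios lay apart from the other libraries of their genotype by Dixon's criterion, out of 28 groups examined, and chance alone gives about 1 in 20. *Cdh3* was at 13.4 CPM in wildtype replicate 5, against 3.07 to 5.80 CPM in the other wildtype libraries. *Ctnnb1* was at 541 CPM in the same library, against 624 to 642 CPM. Log2 CPM of *Cdh1* minus the median lens epithelium marker was -2.21 in *Atf4* null replicate 1, against -1.01 to -0.90 in the other null libraries. Wildtype replicate 5 is the library with high muscle and mesenchyme markers, and their part in its *Cdh3* and *Ctnnb1* values was not tested.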

How the results depend on the processing

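Of 161 alternative values for the log2 fold changes of the 9 genes, 153 kept their direction and side of the threshold, 1 lost its call and 7 changed sign, all 7 in genes that had not passed. Without 1 library at a time, 1 to 2 of the 9 genes passed, 527 to 1207 of all genes (880 with all 9 libraries, 1397 with DESeq2) and 3 to 18 of the junction list genes. Leaving out 1 of 6 libraries left 3 or 4 of those 10, while all 10 still passed without wildtype replicate 5. With library size in place of TMM, the median of all genes moved to 0.13, 64.6% of calls were higher rather than 37.8%, and *Ctnnb1* was at 0.10. Leaving out libraries gave -0.060 to 0.0095 for *Ctnnb1*, -0.028 to 0.17 for *Jup* and -0.26 to 0.63 for *Epcam*. The ratio of *Cdh1* to *Epcam* then lay between -4.58 and -2.14, and was -3.72 (exact permutation p = 0.00794) with a pseudocount of 5. That of *Jup* to *Ctnnb1* lay between -0.035 and 0.25. Same-numbered libraries did not deviate together (correlations -0.44 to 0.07). Since the wildtype numbers are uncertain, this cannot decide whether some libraries came from littermate pairs. With the replicate number as a replicate block, 852 genes passed, *Cdh1* and *Cdh2* among them, *Epcam* was at -0.62, and the mean differences of the ratios of *Cdh1* to *Cdh2*, to epithelium markers and to *Cdh3* were -3.06, -2.18 and -4.92, where 4 pairs cannot give an exact p below 0.125. The causes were not tested. Depth limits *Epcam*, *Cdh3* and *Cdh17*, and shared exon bases limit *Ctnnd1*, *Ccnd1*, *Jam3* and *Vcl*. Other named genes lost their call in 60 of 297 alternative values, with 0 changes of sign.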

Other observations

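Without wildtype replicate 5, the library with high muscle and mesenchyme markers, 1207 of all genes tested passed the threshold, against 880 with all 9 libraries. Of the junction lists, 8 further genes passed without it, and they are named here after their values were seen. In that comparison of 4 null with 4 wildtype libraries, vinculin (*Vcl*), an actin linker of α-catenin, was higher at a log2 fold change of 0.68 (SE 0.13, edgeR adjusted p = 0.0028, and 0.0831 with all libraries). *Cdh11*, the cadherin of mesenchyme, was at 0.76 (SE 0.20, edgeR adjusted p = 0.025), *Zeb1* at 0.39 (SE 0.11, edgeR adjusted p = 0.0406) and *Apc2* at 1.09 (SE 0.25, edgeR adjusted p = 0.013). The p120-catenin relatives *Ctnnd2* and *Arvcf* were lower, at -0.40 and -0.46 (edgeR adjusted p = 0.0209 and 0.0434), as were the polarity gene *Crb2* at -0.70 (edgeR adjusted p = 0.0206) and the tight junction gene *Jam3* at -0.45 (edgeR adjusted p = 0.0372). Mesenchyme markers summed to 256 to 607 CPM in the null libraries and to 90.7 to 175 CPM in wildtype replicates 1 to 4, and their part in the *Cdh11* and *Zeb1* values was not tested.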
